A study of Mus musculus with 24 samples.

Results

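The cytokine and chemokine genes of natural killer (NK) cells were followed across all 24 RNA-seq libraries of NK cells sorted from mouse spleen. The 9 genes, taken by symbol from the 45237 genes of the count table, were Ifng, Tnf, Csf2, Lta, Ltb, Ccl3, Ccl4, Ccl5 and Xcl1. All 9 were among the 17097 genes that passed the filter on low counts, Lta only through libraries in which it was high. NK cells came from WT C57BL/6J young adult female mice, either control mice without tumor (4 libraries) or mice that had received RMA or RMA-KR lymphoma cells intravenously. RMA is a T cell lymphoma line. RMA-KR is a single clone derived from it that lacks B2m, and with it surface MHC class I, and carries the NKG2D ligand Rae1-β, so that NK cells recognize it. Both lines express the fluorescent protein ZsGreen. RMA-bearing mice were sampled at an early (day 2), an intermediate (day 4) and a late stage (day 9), with 3 libraries each. RMA-KR–bearing mice were sampled at an early (day 2, 3 libraries), an intermediate (day 7, 5 libraries) and a late stage (day 14, 3 libraries). At the intermediate and late stages the 2 models therefore differed in day as well as in tumor, and these cannot be told apart. Cells were sorted as positive for NKp46 or NK1.1 and negative for T and B cell antigens. The study counts replicates of the control and late groups as mice, with 3 mice per group. The control group here holds 4 libraries, and which of them the study counted is not stated. For the early and intermediate groups no source used here ties a library to a separate mouse. The p-values there measure the spread between libraries, which may be technical.

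NK cells act on target cells by killing them and also by secretion. Interferon-γ, tumor necrosis factor and GM-CSF act on macrophages and other myeloid cells, lymphotoxins α and β act in lymphoid tissue organization, and CCL3, CCL4, CCL5 and XCL1 attract other leukocytes, XCL1 being the ligand by which NK cells draw in cross-presenting dendritic cells. Resting NK cells already hold transcripts of Ifng, Ccl3, Ccl4 and Ccl5, and activation through NK cell receptors or cytokines raises transcription and secretion within a short time. Fos and Jun, the subunits of the AP-1 transcription factor, are immediate early genes whose transcripts accumulate fast after stimulation or after handling of cells.

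Total counts ran from 5138651 to 14863500 per library, with a median of 10489204. Summed NK cell markers stood at 18277 to 36171 normalized CPM (CPM after TMM scaling, the unit of all levels below). Summed T cell markers stood at 282 to 596, mostly from the T cell receptor constant genes Trbc1 and Trbc2, with Cd3e at 0 in 12 libraries, Cd4 in 17 and Cd8a in 18. Summed B cell markers stood at 213 to 519, mostly Ighm, with Ms4a1 at 0 in 17 libraries. Granulocyte markers reached at most 17.2 and red blood cell markers 3.70. Macrophage markers ranged from 3.20 to 80.3, mainly from Cd68, with Cd14 at 0 in 20 libraries. In bulk libraries, fewer cells of a type and less RNA per cell cannot be told apart.

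4 libraries stood apart from the others of their own group: control 4 and RMA-KR intermediate 3, 4 and 5. Fos was at 83.9 in control 4 against 1650.3, 947 and 924 in control 1, 2 and 3. It was at 88.3, 67.3 and 75.8 in RMA-KR intermediate 3, 4 and 5 against 975 and 986 in RMA-KR intermediate 1 and 2. Jun was likewise at 91.2 to 155 in these 4 libraries and at 363 to 1045 in the other 20. Many results that rest on them are given with and without them. Others, such as the log2 fold changes of Tnf and Csf2 against control, are given with all libraries only.

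The start regions of 4 members are shown here, chosen because their levels in these 4 libraries lay apart from the other 20, Ifng and Ccl3 below and Ltb and Lta above. Ccl4, also low in the 4 libraries, had no promoter entry. The sequences are RefSeq entries on GRCm38.p6, 5′ to 3′ on the strand of the gene, from 250 bases before to 50 bases after its first base. Capitals mark a TATA box (TATAAA) in Ifng and Lta and a match to the NF-kB consensus in Ltb.
Ifng (chr10:118440796-118441095, plus strand): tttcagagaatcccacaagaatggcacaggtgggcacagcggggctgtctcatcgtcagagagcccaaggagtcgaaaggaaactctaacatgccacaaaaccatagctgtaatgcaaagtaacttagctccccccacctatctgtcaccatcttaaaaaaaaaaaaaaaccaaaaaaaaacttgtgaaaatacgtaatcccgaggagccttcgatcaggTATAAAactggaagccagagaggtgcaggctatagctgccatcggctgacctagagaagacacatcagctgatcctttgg
Ccl3 (chr11:83649329-83649628, minus strand): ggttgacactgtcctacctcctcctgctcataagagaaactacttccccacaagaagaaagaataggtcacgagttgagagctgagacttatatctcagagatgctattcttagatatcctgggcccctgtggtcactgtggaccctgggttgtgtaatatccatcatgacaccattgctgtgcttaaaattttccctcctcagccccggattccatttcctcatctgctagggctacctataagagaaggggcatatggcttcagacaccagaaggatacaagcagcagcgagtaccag
Ltb (chr17:35194257-35194556, plus strand): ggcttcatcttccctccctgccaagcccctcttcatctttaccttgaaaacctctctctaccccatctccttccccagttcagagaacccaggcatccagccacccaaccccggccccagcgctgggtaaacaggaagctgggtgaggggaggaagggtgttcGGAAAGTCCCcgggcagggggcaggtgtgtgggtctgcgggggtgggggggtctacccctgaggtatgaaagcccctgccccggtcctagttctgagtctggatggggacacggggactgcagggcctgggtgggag
Lta (chr17:35205302-35205601, minus strand): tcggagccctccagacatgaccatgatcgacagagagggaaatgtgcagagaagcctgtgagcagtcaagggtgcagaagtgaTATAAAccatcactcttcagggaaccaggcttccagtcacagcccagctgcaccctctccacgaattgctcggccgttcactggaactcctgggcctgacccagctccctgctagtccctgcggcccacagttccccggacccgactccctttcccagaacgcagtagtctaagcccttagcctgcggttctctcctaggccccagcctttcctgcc

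These windows, and those of Tnf, Csf2 and Xcl1, were searched on both strands for 5 motifs; entries were matched for 7 of the 9 genes, and Ccl4 and Ccl5 had none. The TATA box (TATAAA) lay 30 bases before the start of Ifng, 29 before that of Tnf and 167 before that of Lta, and 13.6% of 32851 promoter windows hold this motif. The NF-kB consensus match of Ltb (GGAAAGTCCC) lay 87 bases before its start, and 5.8% of windows hold one. A T-box half-site (GGTGTGA) lay 188 bases before the start of Xcl1, against 3.98% of windows. No window held the AP-1 motif (TGANTCA), found in 7.81% of windows, or the cAMP response element (TGACGTCA), found in 1.79%, which says only that these letters are absent from these windows. The windows of Csf2 and Ccl3 held none of the 5 motifs. The first base used for a window is that of its RefSeq entry, which for some members differs from the gene bounds given below. For Csf2 (minus strand) it was 54249899, and the window, 54249850 to 54250149, lies wholly outside the gene as counted. Sequence between that window and the gene was not searched. For Ltb the first base was 35194507, inside the gene as counted. The members of the tumor necrosis factor family lie side by side on chromosome 17 (mm10), Ltb at 35194439 to 35196320, Tnf at 35199381 to 35202007 and Lta at 35203165 to 35205351. Ccl5, at 83525778 to 83530518 on chromosome 11, lies 117325 bases from Ccl3 (83647844 to 83649355), which lies 13228 bases from Ccl4 (83662584 to 83664683). Ifng (chromosome 10, 118441046 to 118445892), Csf2 (chromosome 11, 54247271 to 54249667) and Xcl1 (chromosome 1, 164931644 to 164935527) lie apart from the other members. Neighbouring genes that are not members were not looked at.

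Compared per length (normalized CPM per kb of median transcript length), Ccl5 was the most abundant member, followed by Ccl4, Ccl3, Ifng, Xcl1, Ltb, Tnf, Csf2 and Lta. Over the 20 libraries other than the 4 above, the median level per kb was 6166 for Ccl5, 2218 for Ccl4, 2168 for Ccl3, 447 for Ifng, 215 for Xcl1 and 32.7 for Ltb. Tnf, at 4.50, and Csf2, at 2.82, were near the bottom, and Lta had a median of 0. Ccl5 stood above Ccl4 in 20 of 20 libraries, with ranges that do not overlap, and so did Ccl3 above Ifng, Xcl1 above Ltb and Ltb above Tnf. Ccl4 and Ccl3 were not separated by their ranges (Ccl4 higher in 17 of 20), nor were Tnf and Csf2 (Tnf higher in 12 of 20). In the 4 libraries with low Fos and Jun the order was different. Ifng, at a median of 82.9 per kb, lay below Ltb (172) in 4 of 4 libraries, and Ccl3 (323) was beside Xcl1 (321).

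**Figure D1:**
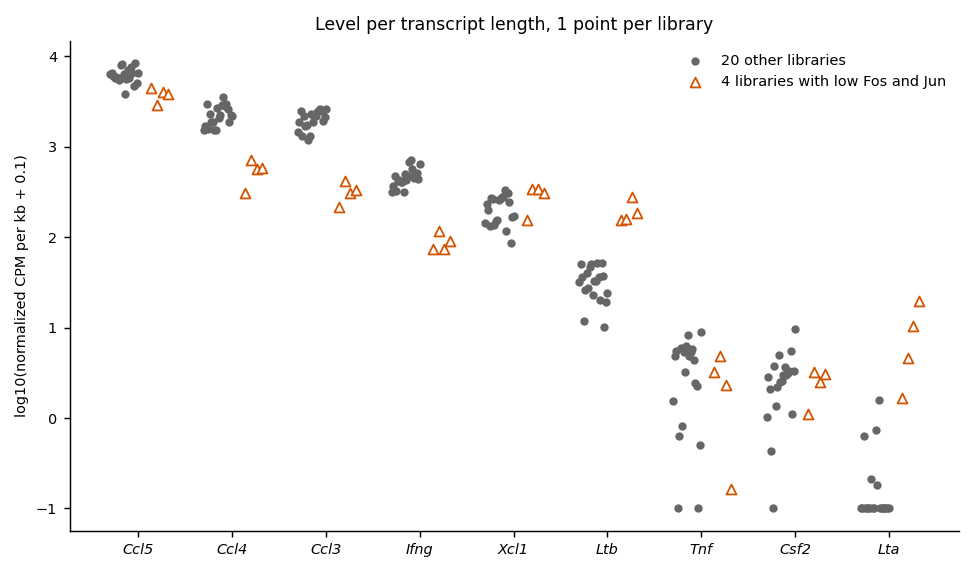
Level of each member per transcript length (vertical axis, log10 of normalized CPM per kb plus 0.1) in every library, with members ordered by their median over 24 libraries. Filled circles are the 20 other libraries and open triangles the 4 libraries with low Fos and Jun, in which Ccl4, Ccl3 and Ifng lie below, and Ltb and Lta above, every other library.

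Ifng, the gene of the main macrophage-activating cytokine of NK cells, was at 253, 292, 373 and 59.3 normalized CPM in the 4 control libraries. In RMA-bearing mice it was at 256, 332 and 339 at the early stage, 393, 337 and 374 at the intermediate stage and 542, 562 and 449 at the late stage. In RMA-KR–bearing mice it was at 327, 320.5 and 251 early, 359.7, 390.5, 93.9, 58.0 and 72.2 at the intermediate stage and 408, 349 and 512 late. The late RMA libraries were all above the control libraries, control 4 included. Marker sums of T cells and macrophages also stood above control in RMA late, without overlap. Those of T cells were at 467 to 596 against 341.5 to 414, and those of macrophages at 34.0 to 52.1 against 8.85 to 18.5. Their part in the level of Ifng was not tested. The log2 fold change of Ifng in RMA late against control was 1.08 (SE 0.52), with an adjusted p of 0.351 by the quasi-likelihood test of edgeR after Benjamini-Hochberg adjustment. Without the 4 libraries it was 0.77 (SE 0.18), with an adjusted p of 0.0361 in the same test. Ifng then met the p threshold of 0.05 but not the fold change of 2 that a call also required. In this direction 1.41% of genes met that p. The libraries left out are also those lowest in Ifng, at 58.0 to 93.9 against 251 to 562 in the other 20. Leaving them out thus narrows the spread of Ifng by that choice, and no conclusion is drawn from this p. Against RMA early, Ifng at RMA late had a log2 fold change of 0.74 (adjusted p = 0.519, SE 0.56, edgeR and Benjamini-Hochberg adjustment) with all libraries and 0.70 (adjusted p = 0.0479, SE 0.18) without the 4. 1.45% of genes met that p in this direction. The 4 libraries belong to neither of these groups. They enter that comparison through the shared estimate of the spread, the scaling and the filter, which kept 17958 genes without them. The same limit therefore holds for its p. In RMA-KR late, Ifng stood 0.79 (SE 0.52) above control with an adjusted p of 0.482 in edgeR, and 0.51 (adjusted p = 0.283, SE 0.18) without the 4 libraries.

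**Figure D2:**
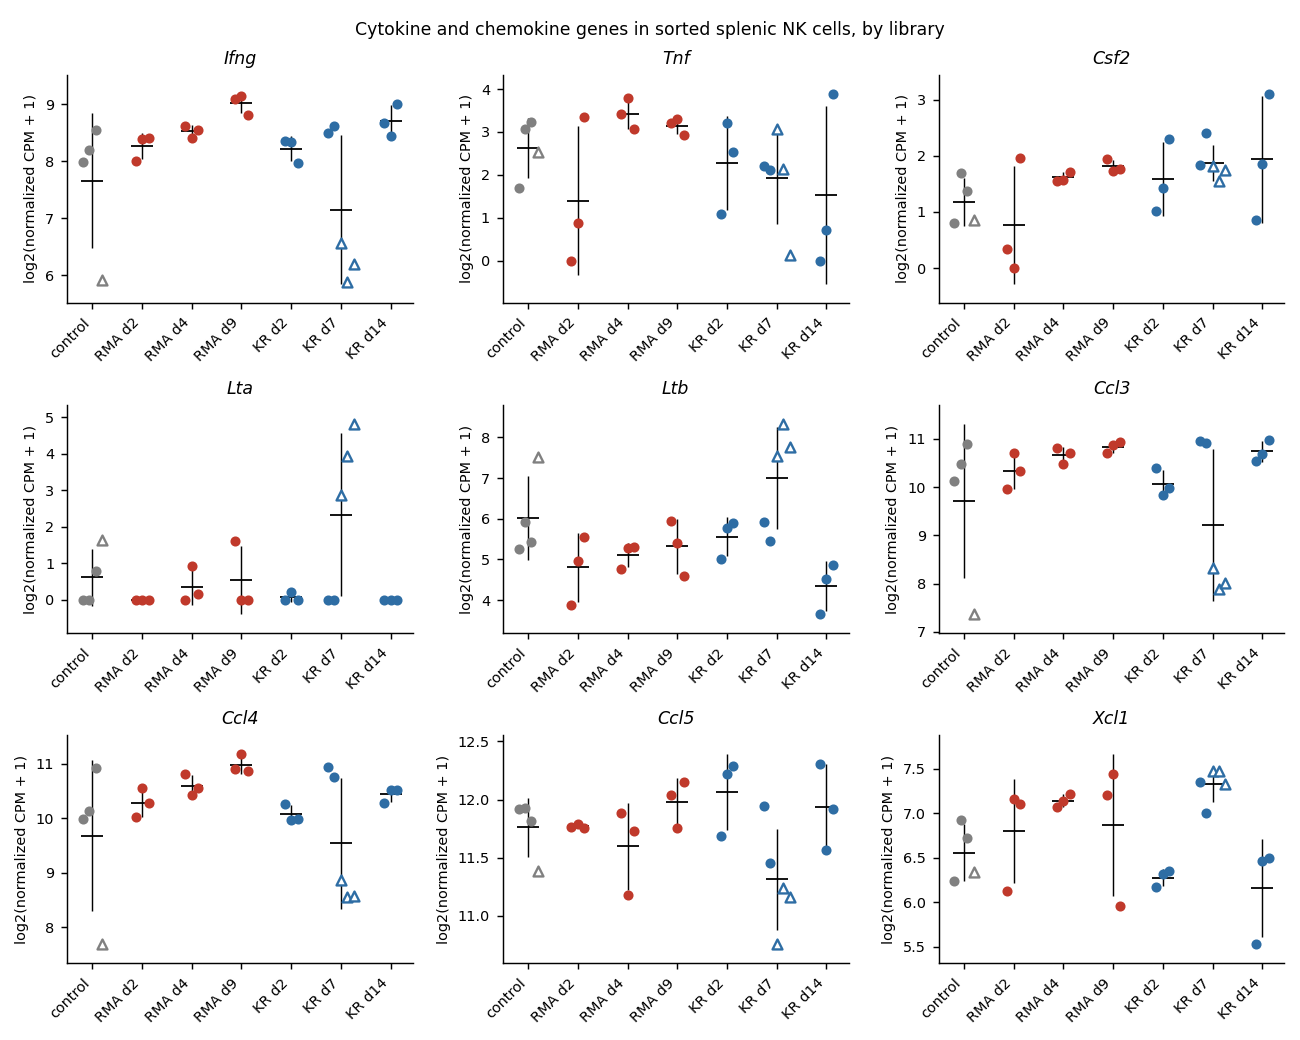
Level of each member by library (vertical axes, log2 of normalized CPM plus 1, with a different range in each panel) in control mice (grey), RMA-bearing mice (red) and RMA-KR–bearing mice (blue, KR), with the day after injection (d). Open triangles are the 4 libraries with low Fos and Jun, horizontal bars are group means and vertical lines are SDs; the triangles set the spread of Ifng, Ccl3, Ccl4 and Ltb in the control and RMA-KR intermediate groups.

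Tnf, the gene of a cytokine of inflammation and cell death, had few reads, 0 to 144 counts in a library. Its level was 2.22, 7.33, 8.43 and 4.82 in control libraries and 9.62, 12.8 and 7.45 in RMA intermediate libraries. In RMA-KR late libraries it was 0, 0.632 and 13.9, which were 0, 9 and 144 counts. Libraries of one group thus differed by more than any group mean did from control. The log2 fold changes against control lay between -0.79 (SE 1.38) in RMA early and 0.80 (SE 1.33) in RMA intermediate.

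Csf2, which encodes GM-CSF, a growth factor for myeloid cells, had 0 to 79 counts in a library. It was at 0.739, 2.22, 1.58 and 0.804 in control libraries and at 2.84, 2.33 and 2.42 in RMA late libraries, which were all above control. The log2 fold change of 0.91 (SE 1.11) was smaller than its error. In RMA-KR late libraries Csf2 was at 0.801, 2.60 and 7.61, with a log2 fold change against control of 1.44 (adjusted p = 0.574, SE 1.11, edgeR and Benjamini-Hochberg adjustment), and these libraries overlapped those of control.

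Ltb encodes lymphotoxin β, the membrane anchor of the lymphotoxin heterotrimer. It was at 37.2, 59.0, 42.0 and 181 in control libraries. In RMA-bearing mice it was at 13.7, 30.3 and 46.0 early, 26.3, 37.6 and 38.4 at the intermediate stage and 60.7, 41.5 and 23.2 late. In RMA-KR–bearing mice it was at 31.3, 53.9 and 58.0 early, 59.8, 42.8, 184, 322 and 216 at the intermediate stage and 11.6, 22.0 and 28.0 late. The late RMA-KR libraries were all below the control libraries, with or without control 4. The log2 fold change of RMA-KR late against control was -1.96 (adjusted p = 0.158, SE 0.63, edgeR and Benjamini-Hochberg adjustment) and -1.12 (adjusted p = 0.363, SE 0.44) without the 4 libraries; DESeq2 with its defaults gave -1.94 and an adjusted p of 0.0407 with all libraries. In the edgeR fit with all 24 libraries, the filter on low counts and no added term, the lowest adjusted p of any member over the 12 comparisons, 0.114, was that of Ltb in RMA intermediate against RMA-KR intermediate, where the log2 fold change was -2.27 (SE 0.62) in edgeR with Benjamini-Hochberg adjustment. Without the 4 libraries that edgeR value was -0.60 (adjusted p = 0.789, SE 0.48). Against RMA-KR early, Ltb in RMA-KR late had a log2 fold change of -1.22 (adjusted p = 0.356, SE 0.64, edgeR) and -1.20 (adjusted p = 0.289, SE 0.44) without the 4 libraries, and the groups did not overlap. Summed T cell markers (416 to 506) and macrophage markers (36.2 to 80.3) in RMA-KR late lay above those of control (341.5 to 414 and 8.85 to 18.5). The T cell sum came mostly from Trbc1 and Trbc2. Taken singly, the 8 tested T cell markers had a median log2 fold change of -0.37, the other direction, and the 3 tested macrophage markers one of 2.38. The part of other cell types in the level of Ltb was not tested.

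Lta encodes the secreted lymphotoxin α. It had 0, 0, 7 and 24 counts in control libraries and 0, 0, 55, 126 and 279 in RMA-KR intermediate libraries. RMA early and RMA-KR late libraries had 0 counts in 3 of 3, RMA-KR early libraries 0, 2 and 0, RMA intermediate libraries 0, 9 and 1, and RMA late libraries 24, 0 and 0. The high libraries of RMA-KR intermediate and the highest of control are those with low Fos and Jun. RMA-KR intermediate 3, 4 and 5 averaged 16.0 normalized CPM, at least 66.9-fold higher than a floor of 3 counts per library in RMA-KR intermediate 1 and 2, a bound that covers counting error only. Without the 4 libraries Lta no longer passed the filter on low counts, and 8 members were tested.

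Ccl3 and Ccl4, encoding the chemokines MIP-1α and MIP-1β, were low in the same 4 libraries as Ifng. Ccl3 was at 1124, 1422, 1900.3 and 164 in control libraries, 1669, 1867 and 1958 in RMA late libraries, and 1495, 1652 and 2030 in RMA-KR late libraries. In RMA-KR intermediate 1 to 5 it was at 1985, 1918, 319, 237 and 258. Ccl4 was at 1015, 1122, 1941 and 205 in control libraries, 1915, 2317 and 1870 in RMA late libraries, 1248, 1466 and 1462 in RMA-KR late libraries and 1965, 1738, 467, 373 and 383 in RMA-KR intermediate libraries. The log2 fold change of Ccl4 in RMA late against control was 0.93 (adjusted p = 0.436, SE 0.52, edgeR and Benjamini-Hochberg adjustment) and 0.59 (adjusted p = 0.195, SE 0.20) without the 4 libraries. For Ccl3 these values were 0.67 (SE 0.63) and 0.32 (SE 0.20). From the early to the late stage of RMA-KR, the libraries of Ifng, Ccl3 and Ccl4 did not overlap, the late ones being higher, and the log2 fold changes were 0.50 (SE 0.56), 0.66 (SE 0.68) and 0.36 (SE 0.56). Neither group holds any of the 4 libraries, and leaving these out of the fit gave 0.51 (SE 0.18), 0.67 (SE 0.20) and 0.37 (SE 0.20), with adjusted p of 0.277, 0.182 and 0.374 in edgeR. Summed macrophage markers also rose between these stages without overlap, from 29.2 to 31.1 early to 36.2 to 80.3 late, while T cell marker sums overlapped. The macrophage sum came mainly from Cd68. Taken singly, the 3 tested macrophage markers had a median log2 fold change of -1.08, the other direction. The part of other cell types in these levels was not tested.

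Ccl5, the most abundant member, encodes a chemokine that NK and memory T cells hold in readiness. It was at 3866, 3892, 3610.3 and 2681 in control libraries and varied between 1729 and 5066 over all libraries. The lowest value was in RMA-KR intermediate 3, and RMA-KR intermediate as a group had a log2 fold change of -0.41 (adjusted p = 0.84, SE 0.20, edgeR and Benjamini-Hochberg adjustment) against control. Without the 4 libraries it was -0.15 (SE 0.23). In the other 5 comparisons against control Ccl5 lay between -0.15 and 0.31.

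Xcl1 encodes the chemokine of XCR1-positive dendritic cells. It was at 74.7, 120.3, 105 and 80.2 in control libraries and at 162, 127, 176, 177 and 159 in RMA-KR intermediate libraries, which were all above control. The log2 fold change was 0.75 (adjusted p = 0.687, SE 0.26, edgeR and Benjamini-Hochberg adjustment), and 0.55 (adjusted p = 0.733, SE 0.37) without the 4 libraries. Unlike Ifng, Xcl1 had no low value in RMA-KR intermediate 3, 4 and 5. RMA intermediate libraries, at 134, 140.0 and 147, also lay above all control libraries, with a log2 fold change of 0.56 (SE 0.29). In RMA-KR late libraries Xcl1 was at 45.1, 87.1 and 89.0, and in RMA late libraries at 146, 173 and 61.1.

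Over the 12 comparisons, 0 of 108 tests of a member met both thresholds (over 2-fold, and below 0.05 for the adjusted p of edgeR's quasi-likelihood test), and 7 had an unadjusted p under 0.05, as had 11.8% of the tests of all genes. Once the 4 libraries were left out, 0 of 96 tests met both thresholds and 14 had an unadjusted p under 0.05, beside 10% over all genes. With a term for the 4 libraries these were 0 and 21 of 108, beside 11.7%. The 21 include Lta in RMA late against RMA-KR late, in RMA late against early and in the early-to-late difference between tumors. Among RMA late libraries only RMA late 1 had Lta counts, so no conclusion is drawn from these. Of all genes tested against control, the share called was 0% in RMA early, 1.65% in RMA intermediate, 1.79% in RMA late, 0.0819% in RMA-KR early, 0.0175% in RMA-KR intermediate and 0.983% in RMA-KR late. RMA against RMA-KR gave 0.304% early, 0.503% at the intermediate stage and 0% late, where 1249 genes had an unadjusted p under 0.05 and Xcl1, with a log2 fold change of 0.78 (SE 0.32), was the one member among them. Ccl4, Ltb and Xcl1 were among 1195 such genes without the 4 libraries. RMA late against early gave 2.01%, RMA-KR late against early 0.322%, and the test of whether the early-to-late change differed between tumors 0%, with 1777 genes at an unadjusted p under 0.05 and no member. Ltb was among 1806 such genes without the 4 libraries, with a log2 difference of -1.64 (adjusted p = 0.451, SE 0.62, edgeR). These shares depend on single libraries and on the tool. Calls in RMA early against control went from 0 to 86 without RMA early 3, those in RMA-KR late against control from 168 to 84 without the 4 libraries and 71 without control 2, and those in RMA late against early from 344 to 81 without RMA late 2 and to 1 with the compared groups alone. Read against these shares, 0 of 9 members does not set the members apart from other genes. Lta passed the filter only through libraries in which it was high, so medians are given for the other 8 members, and they are descriptions. In RMA-bearing mice against control, the median log2 fold change of these 8 was 0.10 early, 0.55 at the intermediate stage and 0.57 late, beside -0.0593, -0.293 and -0.185 over all genes tested. With the 4 left out it was -0.09, 0.25 and 0.38, beside 0.0207, -0.215 and -0.117. In RMA-KR–bearing mice it was -0.03 early, -0.20 at the intermediate stage and 0.28 late, beside 0.00339, 0.0106 and -0.175 over all genes. With the 4 left out it was -0.15, 0.36 and 0.10, beside 0.0719, -0.136 and -0.0836. The medians at the RMA early and RMA-KR intermediate stages thus changed sign with the 4 libraries. The comparisons against control share the 4 control libraries, control 4 among them.

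Groups that did not overlap were counted for the members and for all genes, with all libraries and without the 4. With all libraries, against control, Xcl1 was above in RMA intermediate (10.2% of all genes were above in this way) and in RMA-KR intermediate (1.33%), and Ifng and Csf2 in RMA late (9.24%). Ltb was below control in RMA-KR late (7.73%) and below RMA-KR intermediate in RMA intermediate (3.36%). Ccl4 was above RMA-KR late in RMA late (5.18%), and Ifng and Ccl4 above RMA early in RMA late (11.5%). Between the early and late stages of RMA-KR, Ifng, Ccl3 and Ccl4 were above (7.24%) and Ltb below (8.28%), and neither of these groups holds any of the 4 libraries. The shares over all genes were larger when the 4 libraries were left out of the groups that hold them. Csf2, Ccl3 and Xcl1 were then above control in RMA-KR intermediate (9.38%), Xcl1 in RMA intermediate (12.1%) and Ifng and Csf2 in RMA late (10.8%). Ccl5 was below control in RMA early (6.45%) and Ltb in RMA-KR late (9.74%). In RMA intermediate against RMA-KR intermediate, Tnf was above (15.2%) and Csf2, Ltb and Ccl3 were below (13.8%).

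**Figure D3:**
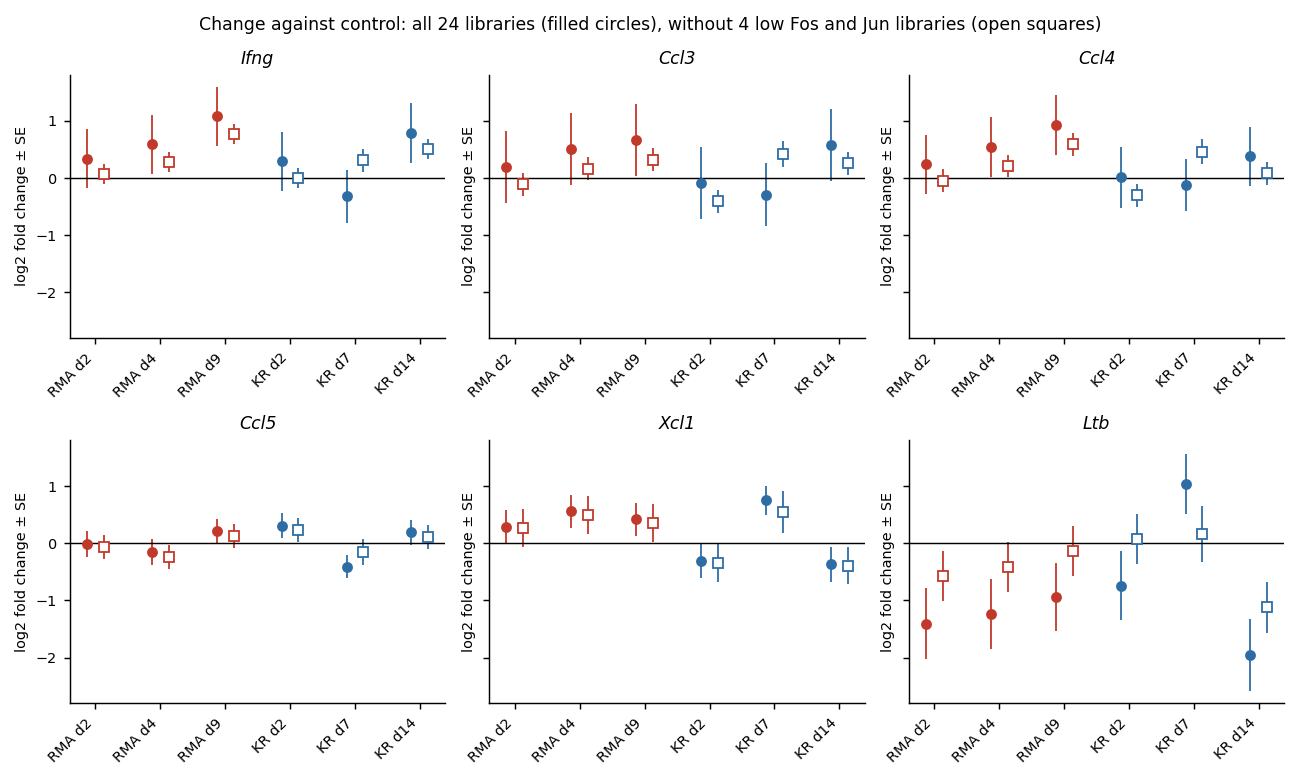
Log2 fold change against control (vertical axis, ± SE from edgeR) of 6 members in RMA-bearing (red) and RMA-KR–bearing mice (blue), by day (horizontal axis). Filled circles use all 24 libraries and open squares leave out the 4 with low Fos and Jun; at day 7 of RMA-KR, Ifng, Ccl3 and Ccl4 change sign between both fits, from -0.32 to 0.31 for Ifng.

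The 4 libraries set the direction of several differences. In RMA-KR intermediate against control, the log2 fold change was -0.32 with all libraries and 0.31 without them for Ifng, -0.29 and 0.42 for Ccl3, and -0.12 and 0.46 for Ccl4. In RMA intermediate against RMA-KR intermediate these values were 0.92 and -0.03 for Ifng, 0.79 and -0.26 for Ccl3, and 0.66 and -0.25 for Ccl4. Ltb in RMA-KR early against control moved from -0.74 to 0.08. None of these values met the thresholds in either fit of edgeR.

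Within the control group, control 4 had 5.16-fold less Ifng than the mean of control 1, 2 and 3, 9.02-fold less Ccl3 and 6.62-fold less Ccl4. Within RMA-KR intermediate, libraries 3, 4 and 5 had on average 5.02-fold less Ifng, 7.2-fold less Ccl3 and 4.54-fold less Ccl4 than libraries 1 and 2. Ltb was 3.94-fold and 4.7-fold higher in the same contrasts. Ccl5 was 1.41-fold and 1.57-fold lower, and Tnf, Csf2 and Xcl1 differed by less than 2-fold, with overlapping values except for Csf2 in RMA-KR intermediate. These are descriptions, since Fos and Jun chose the libraries and no test was made. Few genes in the whole table differed as much. A ratio as low as that of Ifng was found in 0.322% of genes in control and 0.24% in RMA-KR intermediate. For Ccl3 these shares were 0.076% and 0.0877% and for Ccl4 0.187% and 0.333%, while Ltb was matched or exceeded by 0.532% and 1.87%. Among all genes, 5.27% were over 2-fold lower and 6.98% over 2-fold higher in control 4, and 4.7% and 16.5% in RMA-KR intermediate 3, 4 and 5.

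NK cell markers were measured beside these values. Ncr1, Klrb1c, Eomes and Tbx21, which mark or specify NK cells and are part of a list of 10 markers, differed by at most 1.58-fold in the same contrasts. The other markers of the list were not compared singly there. The sum of all 10 was lower in the 4 libraries without overlap, at 18277 to 22540 against 22809 to 36171 in the other 20. The T cell marker sum was 414 to 480 in the 4 and 282 to 596 in the other 20, and the B cell marker sum 383 to 519 and 213 to 488. Macrophage markers were at 10.9 to 23.9 against 3.20 to 80.3, granulocyte markers at 0.491 to 1.95 against 0 to 17.2, and red blood cell markers at 0 to 1.61 against 0 to 3.70. Cd3d, a T cell receptor complex subunit, was at 14.7 to 30.6 in the 4 libraries and 0.966 to 17.2 in the others, with Cd3e at 0 to 5.00 and 0 to 2.52. The part of any of these in the levels of Ifng, Ccl3, Ccl4, Ltb and Lta was not tested.

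**Figure D4:**
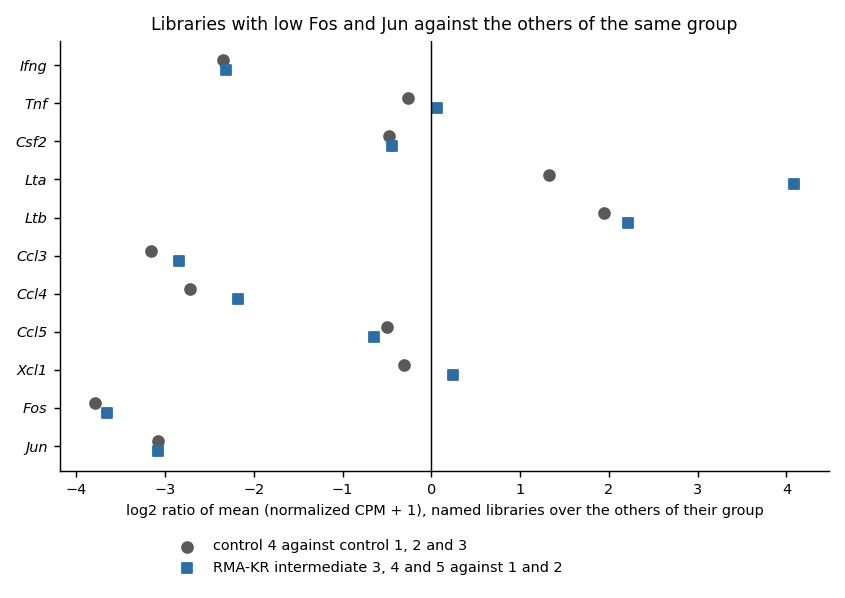
Log2 ratio of mean normalized CPM plus 1 (horizontal axis) for each member and for Fos and Jun, in control 4 against control 1, 2 and 3 (circles) and in RMA-KR intermediate 3, 4 and 5 against 1 and 2 (squares). Ifng, Ccl3 and Ccl4 lie left of 0 (lower) and Ltb and Lta right of 0 (higher) in both groups, with Ifng at -2.35 and -2.31.

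Pearson's r between log2 values was used to name the genes most like each member over 24 libraries, as a description, since the libraries fall into 2 clusters and share depth and library effects. Ifng was most like Ccl3 (r = 0.972), Ccl4 (0.959) and Cd69, an early activation antigen (0.933). Over the 20 libraries without the low ones these values were 0.744, 0.789 and 0.629. Ccl3 and Ccl4 had r = 0.978 over 24 libraries and 0.880 over 20, the closest pair among the members. The next genes by likeness were Csrnp1 for Ccl3 (0.941, and 0.450 over 20) and Cd69 for Ccl4 (0.892 and 0.380). Ltb was most like Cxcr3, a chemokine receptor gene (0.886, and 0.670 over 20), with Tmem176b (0.849, and 0.558 over 20) and Asb2 (0.811, and 0.419 over 20) next. Lta was most like Ltb (0.827, and 0.323 over 20), Cd3d (0.797, and 0.354 over 20) and Tcrg-C4 (0.794, and 0.173 over 20). The r of Ifng with Ltb was -0.814 over 24 libraries and -0.018 over 20, so that this opposition lay between the 4 libraries and the rest. Ccl5 was most like Tmem71 (0.827), Il18rap, an IL-18 receptor subunit (0.826), and Arl6ip5 (0.793), which had 0.708, 0.690 and 0.592 over 20. Xcl1 was most like Nop10 (0.796), Wdr5 (0.776) and Nsun2 (0.759), with 0.759, 0.775 and 0.678 over 20. Tnf was most like Timm29 (0.746), Nsmce3 (0.680) and Ifit1bl1 (0.677), with 0.735, 0.682 and 0.669 over 20. Csf2 was most like Ric8b (0.757), Ints13 (0.728) and Miga1 (0.727), with 0.796, 0.788 and 0.750 over 20. Tnf and Csf2 rest on few counts.

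Genes around the members were followed by lists. Of 12 genes for receptors of these cytokines and chemokines, 10 were tested, and 1 was called against control in any group. Tnfrsf1a, a receptor for tumor necrosis factor and lymphotoxin α, fell in RMA-KR early, from 77.6 ± 13.8 (SD, n = 4) to 24.6 ± 9.15 (SD, n = 3), with a log2 fold change of -1.66 (adjusted p = 0.0265, SE 0.30, edgeR and Benjamini-Hochberg adjustment). Its libraries were at 34.7, 22.3 and 16.8 against 73.2, 75.6, 64.6 and 97.0. The call was lost in 10 of 16 alternatives, at adjusted p from 0.053 to 0.194. These were leaving out the 4 libraries (0.0966), any 1 of the 4 control libraries, RMA-KR early 2 or RMA-KR early 3, the replicate block (0.0833), a term for the 4 libraries, and a fit of the compared groups alone. Of 27 other ligand genes, 16 were tested and 0 were called against control.

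A list of 24 transcription factor genes was tested whole. Irf8, an interferon regulatory factor, rose in RMA intermediate, from 1053 ± 283 (SD, n = 4) to 2281 ± 194 (SD, n = 3), with a log2 fold change of 1.12 (adjusted p = 0.00678, SE 0.22, edgeR and Benjamini-Hochberg adjustment). In RMA late it rose by 1.01 on the same log2 scale (adjusted p = 0.0119 in edgeR), a call lost in 9 of 16 alternatives, among them leaving out the 4 libraries (0.89, below 2-fold), control 1, 2 or 4, or RMA late 2, and the replicate block (0.92). The RMA intermediate call was lost in 2 of 16, without control 4 (0.95) and with a term for the 4 libraries (0.98). Nfatc2, a calcium-regulated factor of cytokine genes, fell by 1.25 in RMA late (edgeR, adjusted p = 0.0211), which was not called in 6 of 16 alternatives, among them without the 4 libraries (adjusted p = 0.0511), without control 4 (0.0652) and without any 1 of the 3 RMA late libraries (0.0607 to 0.166). The members themselves, in the same comparisons, met neither call.

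Of 12 genes for mRNA decay, all tested, Zfp36l2, whose product binds AU-rich elements of cytokine mRNAs, fell by 1.22 on the log2 scale in RMA intermediate (adjusted p = 0.0259, SE 0.30, edgeR and Benjamini-Hochberg adjustment). The call was lost without control 1, control 3 or any 1 of the 3 RMA intermediate libraries (adjusted p from 0.0572 to 0.18). Of 19 immediate early genes, 18 were tested, and Egr1 rose in RMA-KR late, from 21.7 ± 8.05 (SD, n = 4) to 77.5 ± 40.4 (SD, n = 3), with a log2 fold change of 1.84 (adjusted p = 0.0151, SE 0.38). The call was lost in 6 of 16 alternatives, at adjusted p from 0.06 to 0.103: without the 4 libraries (0.0656), control 3, control 4 or RMA-KR late 3, with the replicate block (0.06) and with the compared groups alone. Nr4a1 was called higher without the 4 libraries. In RMA late against control, Fos, Fosb and Jun were called lower without the 4 libraries. Low Fos and Jun had chosen those libraries, control 4 among them, so this fit keeps only controls with high Fos and Jun. No conclusion is drawn from these calls. The same fit called Btg2 lower in RMA intermediate against control. It called Btg2, Dusp1, Ier2, Junb and Ppp1r15a lower in RMA intermediate against RMA-KR intermediate. There it keeps only RMA-KR intermediate 1 and 2, which had high Fos and Jun. Junb was 6.34-fold lower in RMA-KR intermediate 3, 4 and 5, which are left out. These calls thus depend on the same choice of libraries, and no conclusion is drawn from them. With all libraries 0 immediate early genes were called in these 3 comparisons.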

How the data were processed

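NK cells sorted from mouse spleen gave 24 libraries, which were grouped by the sample labels into 7 groups. The authors trimmed reads with cutadapt 1.10, removed ribosomal RNA reads with Bowtie2 2.2.8, aligned the rest to mm10 with STAR 2.5.3a and counted reads per Ensembl gene with HTSeq 0.6.1p1; DESeq2 1.16.1 was their test. The deposited values used here are raw counts of reads per gene, whole numbers without normalization; the deposited median transcript length of each gene was used for levels per kb. Not used were 48 further per-library columns and 29 columns that hold the authors' own fold changes and p-values. The members were matched by symbol.

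The analysis used edgeR 4.0.16 and limma 3.58.1 under R 4.3.3: filterByExpr on the 7 groups, TMM scaling, 1 mean per group over all 24 libraries, the robust quasi-likelihood test and Benjamini-Hochberg adjustment over the 17097 genes tested. Calls required over 2-fold and an adjusted p below 0.05. Genes outside the members were named from lists if called against control, at most 4 per list and comparison, and by the 3 highest Pearson's r with a member among genes with a mean of at least 5 normalized CPM (log2 after adding 1). The floor was 3 counts per library. Counting error was small beside the spread between libraries for members with many reads; r between libraries of a group was 0.81 to 0.964. The fit was tested on simulated data for RMA late against control, with genes changed 4-fold among those with a mean above 5 normalized CPM. It recovered 124 of 200 such genes (62%), with 2 false calls among 15410 unchanged genes. A member without a call is therefore not shown to be unchanged, also where its reads are many. Alternatives were DESeq2 1.42.0 and its size factors, other filters, a replicate block, the compared groups alone, leaving out libraries, and a term for the 4 libraries with low Fos and Jun. Members and lists were chosen with earlier results of these data known. Some results of the gene lists are not reported here.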

Additional observations from a re-analysis of the deposited data

Results flagged for a closer look

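The 9 members were examined in the 2 groups of 4 or 5 libraries (control and RMA-KR intermediate), 18 sets of values in all. In 2 of them a value stood far from the rest, where chance alone gives this in about 1 in 20. Csf2 in RMA-KR intermediate 2 was at 4.32 normalized CPM, the highest of 5 libraries, the others lying between 1.93 and 2.57. Ltb in control 4 was at 181 normalized CPM, the highest of 4, the others lying between 37.2 and 59.0.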

How the results depend on the processing

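Calls and sizes both changed with the processing. Over the whole table, calls under the alternatives ran from 0 to 88 in RMA early against control (0 with all libraries in edgeR), 166 to 762 in RMA intermediate (282), 127 to 624 in RMA late (306), 0 to 147 in RMA-KR early (14), 0 to 56 in RMA-KR intermediate (3) and 71 to 483 in RMA-KR late (168). For RMA against RMA-KR they ran from 0 to 338 early (52), 34 to 340 at the intermediate stage (86) and 0 to 56 late (0), for late against early from 1 to 972 in RMA (344) and 2 to 498 in RMA-KR (55), and for the difference between these changes from 0 to 154 (0). Ltb in RMA late against control went from a log2 fold change of -0.94 to -0.02 with the replicate block and -0.10 with a term for the 4 libraries with low Fos and Jun, and in RMA intermediate against RMA-KR intermediate from -2.27 to -1.37 and -0.65. Of 1706 values of single members under the alternatives, 1592 kept their sign and their side of the thresholds, 10 met the thresholds only in the alternative, and 104 changed sign without meeting them in either fit. Of the sign changes, 24 had a log2 fold change of at least 0.5 in size with all libraries, 62 came from the 792 values with 1 library left out, 11 from leaving out the 4 libraries with low Fos and Jun and 16 from a term for them. With no filter on low counts, 1 member was called in each of 5 comparisons: Ltb in RMA early, RMA intermediate and RMA-KR late against control and in RMA intermediate against RMA-KR intermediate, and Ifng in RMA late against control (adjusted p = 0.000261 in edgeR). DESeq2, with its defaults or with betaPrior=TRUE, called 1 member, Ltb, in RMA-KR late against control (adjusted p = 0.0407 and 0.0412) and in RMA intermediate against RMA-KR intermediate (0.00661 and 0.00419). With at least 10 counts required in every library, 6 members were tested and 1, Ltb, was called in the latter comparison (0.0462). The cause was not tested. Leaving out 1 library at a time gave 0 members called in every case. A term for the 4 libraries gave Ifng in RMA late against control a log2 fold change of 0.77 and an adjusted p of 0.0186 in edgeR. That term takes up the low Ifng of these libraries, so no conclusion is drawn from this p. The replicate block gave 0 members called in every comparison; libraries with the same number correlated at -0.118 to 0.202 (median -0.00711), so that the numbers were not taken to pair libraries. Over the whole table the block took the calls in RMA-KR early against control from 14 to 0. For Tnf, Csf2 and Lta, low counts limit what can be detected.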

Other observations

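Some genes outside the lists, chosen after their values were seen, were also measured in the 4 libraries with low Fos and Jun. Il7r, the IL-7 receptor chain gene, was at 65.5 to 133 normalized CPM in control 4 and RMA-KR intermediate 3, 4 and 5 and at 0.103 to 24.3 in the other 20 libraries, without overlap. Kit was at 118 to 266 against 9.16 to 184, and Tcf7, a transcription factor gene of early NK cells, at 91.7 to 164 against 16.6 to 123, both with overlap. Fosb was 15.6-fold lower in control 4 than in control 1, 2 and 3, and 2.4-fold lower in RMA-KR intermediate 3, 4 and 5 than in 1 and 2. Junb was 5.02-fold and 6.34-fold lower in the same contrasts, whereas Egr1 was 1.42-fold and 1.37-fold lower, with overlapping libraries. These are descriptions with no test.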
